A study of Mus musculus with 70 samples.

Results

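The T cell receptor signalling and costimulation genes are a set of 36 genes named by symbol, which cover the receptor chains, its coreceptors and costimulators, the kinases and adaptors next to the receptor, its negative regulators, the routes to NFAT and NF-kB, and surface molecules that follow activation. All 36 had an identifier in the deposited count table of 53465 gene IDs and all were among the 13173 protein-coding genes tested. They were read in regulatory T cells (Tregs) of 5 male Foxp3-YFP-cre mice aged 16.6 to 18.6 weeks, in which the Foxp3 locus carries YFP and Cre, so every library here, controls included, came from that allele. ST2+ CD44hi and ST2- CD44hi Tregs were sorted from blood, spleen, lungs, visceral adipose tissue (VAT), colon and back skin, and ST2- CD44lo CD62L+ Tregs, the resting or central population, from spleen and lungs, which gives 14 groups of up to 5 mice. The groups differ by tissue and sorted population and by no treatment named in the labels.

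The T cell receptor passes its signal through CD3 chains to the kinase ZAP-70, which phosphorylates the adaptors LAT and SLP-76. These adaptors organise phospholipase C gamma, Ras and protein kinase C theta, and the signal ends in calcium-dependent NFAT and, through BCL10 and MALT1, in NF-kB. CD28 and ICOS add a second signal, while ubiquitin ligases such as CBL-B, phosphatases such as PTPN22 and the diacylglycerol kinases hold the pathway back. Tregs need receptor signals for their effector state, and ICOS and CD28 are known for supporting Tregs in tissues.

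The members lie on many chromosomes of GRCm38. Cd3g, Cd3d and Cd3e stand side by side on chromosome 9, between 44969572 and 45009627, and Cd28 and Icos are neighbours on chromosome 1, between 60716800 and 61000320. The bases just before the start site are printed for 5 members because 4 of them, Cd44, Grap2, Nfatc2 and Prkcq, set skin apart from every other tissue in the results, and Cblb is the member that differed between ST2+ and ST2- Tregs in the most tissues. They are RefSeq promoter windows on GRCm38.p6, cut to the 250 bases before the start and written 5′ to 3′ on the strand of the gene, and capitals mark each GGAAA, the core bound by NFAT, or its reverse complement.
Cd44, chr2:102901666-102901915, minus strand: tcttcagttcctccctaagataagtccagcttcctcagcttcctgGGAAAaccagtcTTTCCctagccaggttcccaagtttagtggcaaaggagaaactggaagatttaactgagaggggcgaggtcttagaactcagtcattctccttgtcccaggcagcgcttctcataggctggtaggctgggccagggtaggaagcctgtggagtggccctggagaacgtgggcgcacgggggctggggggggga
Grap2, chr15:80623233-80623482, plus strand: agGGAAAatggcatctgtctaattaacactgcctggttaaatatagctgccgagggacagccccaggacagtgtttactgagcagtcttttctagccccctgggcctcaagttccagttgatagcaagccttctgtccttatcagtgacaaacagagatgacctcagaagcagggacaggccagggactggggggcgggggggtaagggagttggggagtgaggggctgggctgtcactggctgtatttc
Nfatc2, chr2:168601658-168601907, minus strand: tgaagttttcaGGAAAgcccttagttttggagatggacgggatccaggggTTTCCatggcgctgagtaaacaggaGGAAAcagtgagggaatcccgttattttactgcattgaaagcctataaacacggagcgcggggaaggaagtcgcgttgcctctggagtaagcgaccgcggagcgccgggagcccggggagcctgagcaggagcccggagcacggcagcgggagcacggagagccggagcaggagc
Cblb, chr16:52031299-52031548, plus strand: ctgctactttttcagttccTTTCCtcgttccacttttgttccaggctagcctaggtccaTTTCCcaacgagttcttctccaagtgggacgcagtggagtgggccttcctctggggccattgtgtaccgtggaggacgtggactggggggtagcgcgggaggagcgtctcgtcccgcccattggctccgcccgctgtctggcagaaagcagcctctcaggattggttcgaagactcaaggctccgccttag
Prkcq, chr2:11172132-11172381, plus strand: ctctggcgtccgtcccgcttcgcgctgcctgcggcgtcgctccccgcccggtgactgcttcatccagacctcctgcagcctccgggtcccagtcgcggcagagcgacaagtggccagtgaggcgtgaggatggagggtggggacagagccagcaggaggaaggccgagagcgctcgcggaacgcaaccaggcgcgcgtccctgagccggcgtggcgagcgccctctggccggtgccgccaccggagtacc
In the printed windows the core occurred 2 times before Cd44, 1 time before Grap2, 3 times before Nfatc2, 2 times before Cblb and 0 times before Prkcq, whose window was 72.4% G and C. Nfatc2 has another start, whose window, chr2:168590366-168590615, held 1 core and is not printed. Windows were found for 28 of the 36 members, 41 windows in all since some genes have several starts. GGAAA on either strand was in 28 of these 41 windows (68.3%) and in 55.6% of all 32851 windows of the same length. The AP-1 motif TGANTCA was in 1 member window, before Rcan1, and in 6.75% of all windows, both strands searched. For 32 of the 41 windows the bases from the start on were found in an annotated transcript of the gene. This Rcan1 window was not among them. The motif matches describe the letters in the windows. No binding was measured.

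Of 70 libraries 67 were kept, with 1304560 to 2759926 counts, and the 3 left out (blood ST2+ mouse 1 and colon ST2+ mice 2 and 5) leave 4 and 3 libraries in those groups. Foxp3, the transcription factor that defines Tregs, was at 105 to 414 CPM (normalised counts per 1000000) in every library, and Il1rl1, which encodes ST2, was at 230 CPM or more in every ST2+ library against at most 195 CPM in ST2- libraries. The 10 myeloid marker genes summed to 1263 to 1448 CPM in the 3 colon ST2+ libraries and to at most 434 CPM in any other, and 11 immediate early and heat shock genes summed to 1065 to 3086 CPM in blood and spleen CD44hi libraries against 2811 to 9667 CPM in the 4 tissues that were digested at 37 °C. In a bulk library, fewer cells expressing a gene and less RNA per cell cannot be told apart.

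Members differed widely in level. Per kilobase of exon, the median over the 67 libraries was highest for Cd2, an adhesion receptor that pairs with CD48, at 325 CPM per kb, followed by Icos at 208 and Cd3d at 207 CPM per kb. The lowest were Rcan1, an inhibitor of calcineurin, at 8.09, Nfatc2 at 8.69, Themis at 9.58 and Grap2 at 9.80 CPM per kb. Themis was at a count of 0 in 1 library and Rcan1 in 2, and no other member was at 0 in any of the 67. Summed over the 36 genes, CD44hi Tregs had 12294 to 13952 CPM in the 10 spleen libraries and 16328 to 18980 CPM in the 10 skin libraries, so the spleen and skin ranges did not overlap on this sum. The sum is weighted towards members with many counts and does not show a rise in each. Icos alone averaged 453 CPM in spleen and 1824 CPM in skin, while all receptor chains had their lowest mean in skin.

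By role, the receptor chains were the most even across tissues, though all 4 had their lowest mean in skin. Among CD44hi Tregs the highest tissue mean was 1.43 times the lowest for the median of the 4 receptor chains (Cd3d, Cd3e, Cd3g and Cd247), 1.88 times for the median of all 36 members and 2.21 times for the median of all tested genes. For the 7480 tested genes within the members' range of mean CPM the median was 1.85 times, close to that of the members. Cd3e, the epsilon chain, averaged 559 ± 46.6 CPM in spleen and 382 ± 50.5 CPM in skin (SD, n = 10 libraries each, from 2 populations of the same 5 mice). That is a log2 difference of -0.55 ± 0.06 (SE; adjusted p = 1.19e-10 by edgeR's quasi-likelihood test), which is past the p threshold but under the 1.5-fold change required of a call. In a contrast of the same fit for ST2+ libraries alone Cd3e was called, at -0.65 (adjusted p = 4.91e-08). In that for ST2- libraries alone, at -0.45, it was not. Cd3g, the gamma chain, spanned 403 CPM in skin to 496 CPM in blood, and Cd247, the zeta chain, 232 CPM in skin to 327 CPM in blood. Cd3d, the delta chain, spanned 299 CPM in skin to 435 CPM in blood. For skin against spleen the median log2 fold change of the 4 chains was -0.35, where that of all tested genes was -0.02. All 4 had an unadjusted p under 0.05 by the same test, as did 7393 of all 13173 tested genes. None of the 4 was called with both populations together. Of the exon bases of Cd247, 56.4% also belong to Pou2f1 on the other strand, and the library kit does not mark strand, so reads of the 2 genes there cannot be told apart.

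The coreceptor Cd4, the adaptors Lat and Lcp2 (SLP-76), the kinase Zap70 and the phosphatase Ptprc (CD45) were about as even. Ptprc had tissue means from 1923 CPM in spleen to 2240 CPM in blood, a ratio of 1.17, and Lat from 350 CPM in spleen to 413 CPM in blood, a ratio of 1.18. In all, 11 members had a ratio under 1.5 and 19 a ratio under 2. At the other end stood Cd44 at 5.71, Themis at 5.25, Malt1 at 4.61, Prkcq at 4.42 and Icos at 4.15.

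**Figure D1:**
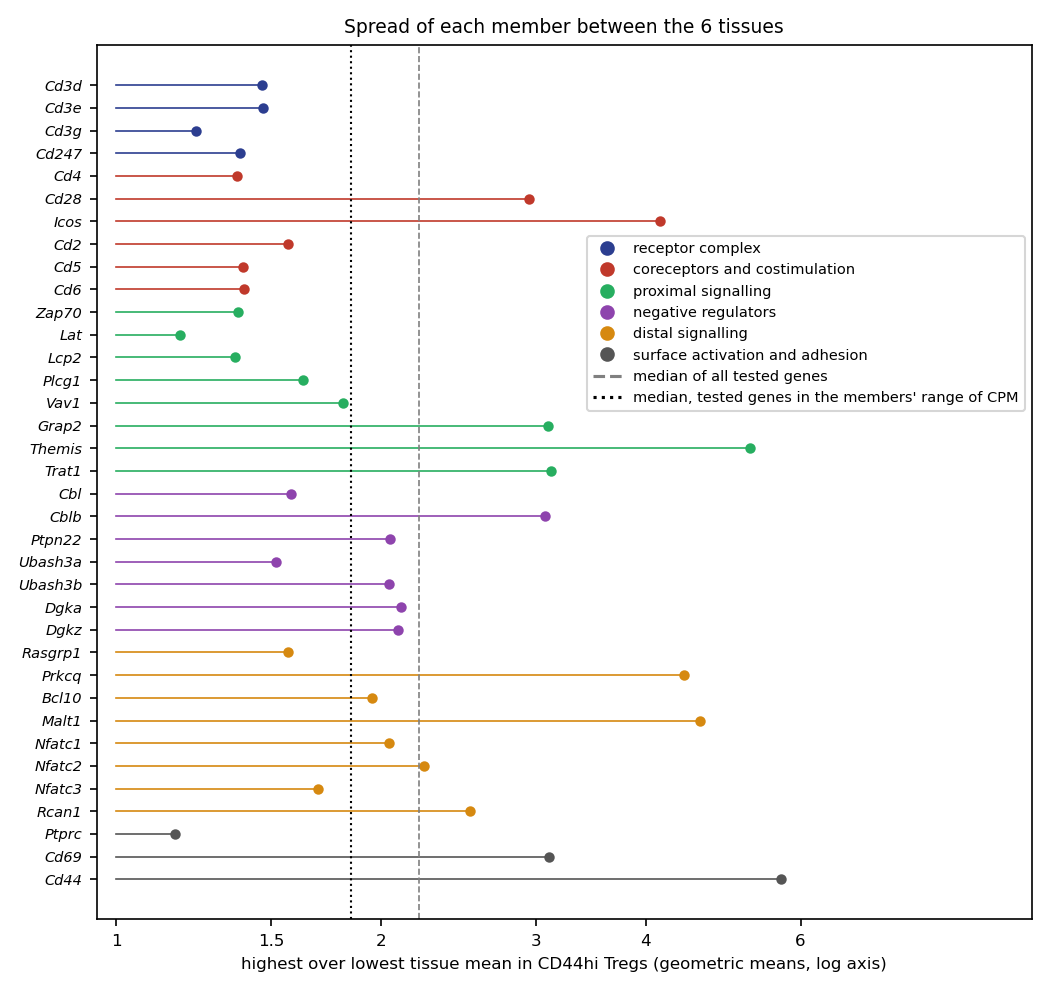
Ratio of the highest to the lowest tissue mean (geometric means of CPM in CD44hi Tregs, log axis) for each of the 36 members, coloured by role, with the median of all 13173 tested genes as a dashed line and that of the 7480 within the members' range of CPM as a dotted line. The 4 receptor chains lie between 1.23 and 1.47, while Cd44, Themis, Malt1, Prkcq and Icos lie above 4.

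Whether CD44hi Tregs of each tissue carry the pathway at the level seen in spleen was asked by comparing each tissue with spleen, with both populations weighted equally. The 5 comparisons share the same 10 spleen libraries and are not independent. A gene is called where the fold change is at least 1.5 and the adjusted p at most 0.05. Skin had the most members called, 17 of 36, followed by colon with 10, lungs with 9, VAT with 6 and blood with 3. The test for any difference among the 6 tissues passed for 34 of 36 members, all but Rcan1 and Ptprc, where 67.2% of all tested genes passed. That share, like those below, is over genes of every level, and none is given for genes within the members' range of CPM. Leaving out 1 mouse at a time left 29 to 32 of the 34 members, and Cd3g, Cd4, Lat and Zap70 were among those lost.

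In skin 12 of 36 members were higher than in spleen, where 21.0% of all tested genes were higher, and 5 were lower, where 20.2% were. The median log2 fold change was 0.23 over the members and -0.02 over all tested genes. By role, the 17 comprised 0 of the 4 receptor chains, 3 of the 6 coreceptors and costimulators, 3 of the 8 proximal genes, 4 of the 7 negative regulators, 5 of the 8 distal genes and 2 of the 3 surface molecules. In colon 6 were higher (14.7% of all genes) and 4 lower (4.73%). In lungs 9 were higher (6.16%) and 0 lower, and in VAT 6 were higher (8.80%) and 0 lower, although 4.02% and 7.09% of all genes were lower there. In blood 2 were higher (2.98%) and 1 lower (4.81%).

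**Figure D2:**
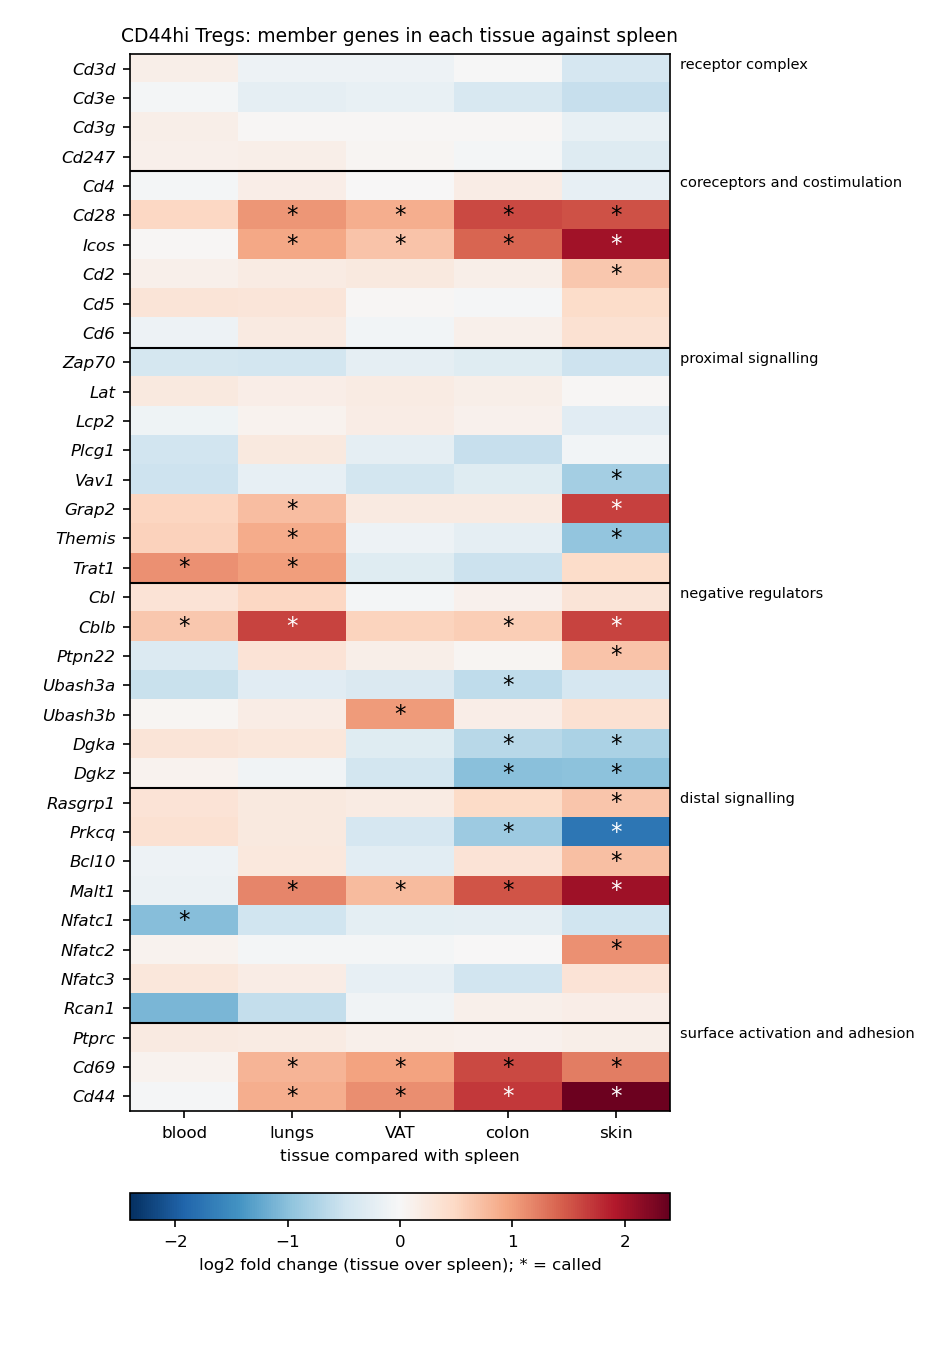
Log2 fold change of each member (rows, by role) in CD44hi Tregs of each tissue over spleen (columns), red for higher and blue for lower, with a star where the gene was called. Cd28, Icos, Malt1, Cd69 and Cd44 are starred in lungs, VAT, colon and skin, and the receptor chains in none.

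Among the costimulatory receptors, Cd28 and Icos were called in 4 tissues each. Cd28, the main costimulatory receptor, ranged from 290 to 545 CPM in the 10 spleen libraries (median 445), from 785 to 1077 CPM in lungs (median 899), from 542 to 1097 CPM in VAT (median 780), from 1091 to 1463 CPM in colon (median 1300) and from 1054 to 1643 CPM in skin (median 1227). Every lung, colon and skin library was above every spleen library, and 1 VAT library, at 542 CPM, lay just inside the spleen range. Cd28 was higher than in spleen by a log2 fold change of 1.58 ± 0.09 (SE) in colon, 1.53 ± 0.09 in skin, 1.06 ± 0.09 in lungs and 0.88 ± 0.08 in VAT, with adjusted p from 4.48e-23 in skin to 1.28e-12 in VAT. In blood it was 0.50 ± 0.09, short of 1.5-fold.

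Icos, the inducible costimulator, went from 337 to 590 CPM in spleen (median 455) to 1380 to 2241 CPM in skin (median 1868) and 999 to 1428 CPM in colon (median 1207). Neither of these reached down to the spleen range, while skin and colon overlapped each other at 1380 to 1428 CPM. Lungs, at 681 to 1200 CPM (median 879), lay above every spleen library, and VAT, at 527 to 961 CPM (median 734), overlapped the spleen range at its low end. The log2 fold change over spleen was 2.02 ± 0.11 in skin (adjusted p = 5.91e-24), 1.41 ± 0.11 in colon, 0.93 ± 0.11 in lungs and 0.69 ± 0.11 in VAT. The VAT value was 1.09 in ST2- libraries alone and 0.30 in ST2+ libraries alone (adjusted p = 0.182), where it was not called. In blood Icos ran from 225 to 753 CPM and the ST2+ and ST2- libraries lay apart there. Cd2 was called in skin alone among these comparisons, with a mean of 804 ± 99.3 CPM in skin and of 512 ± 57.0 CPM in spleen (SD, n = 10 each) and no overlap. Cd4, Cd5 and Cd6, the latter 2 being inhibitory scavenger receptors bound to the receptor complex, were called in 0 of these comparisons.

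**Figure D3:**
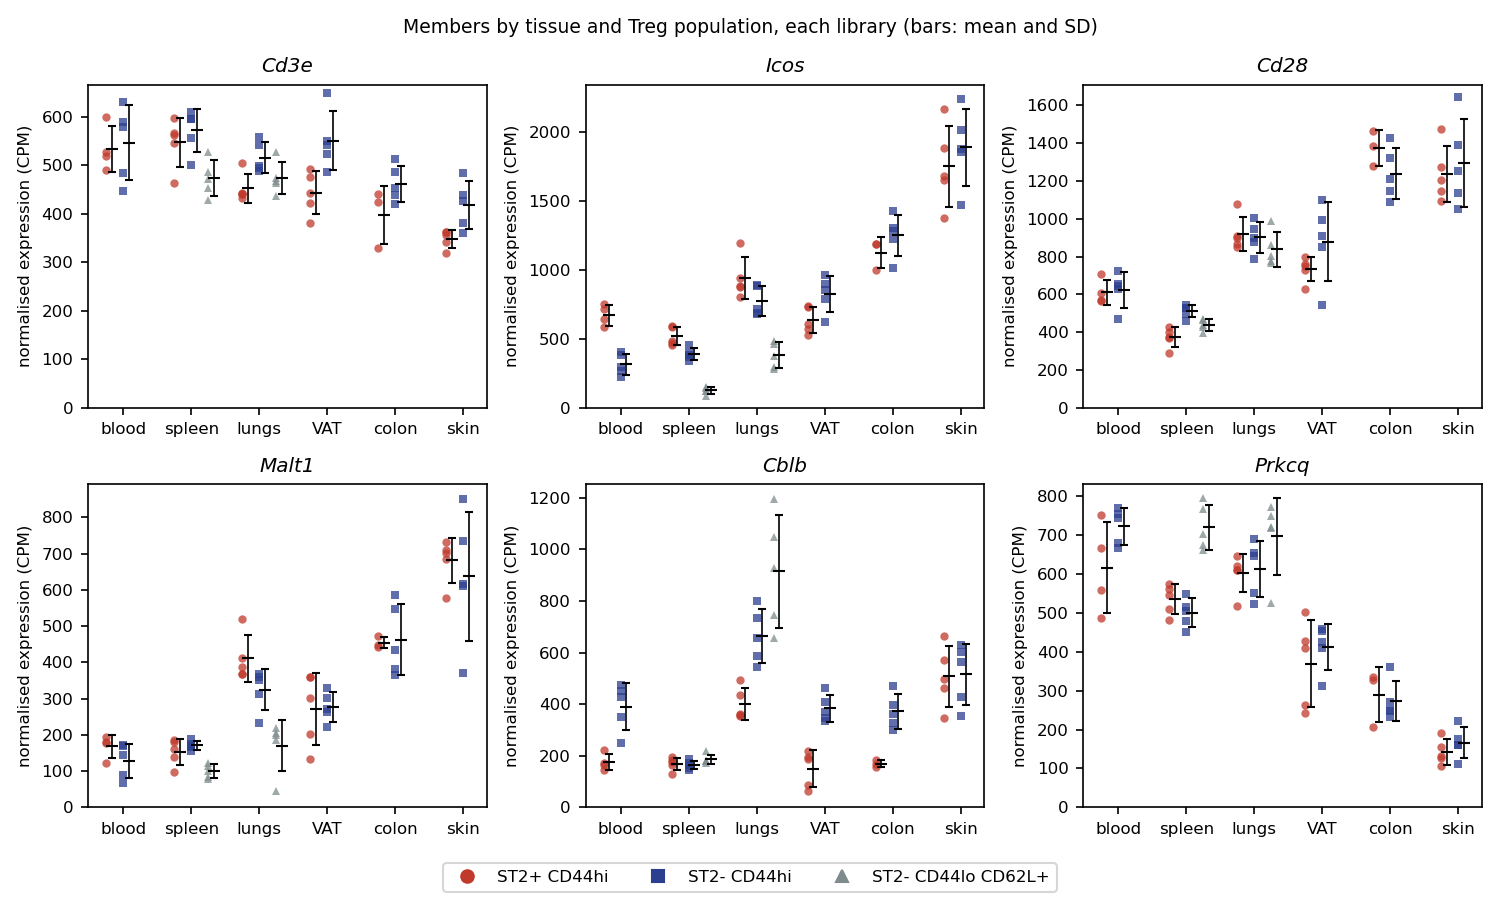
Normalised expression (CPM, linear axis from 0) of 6 members in every library, by tissue and Treg population, with the mean and SD of each group as bars. Icos and Malt1 are highest in skin, Cd28 in colon and skin, Prkcq is lowest in skin, Cd3e moves least and is also lowest in skin, and Cblb is highest in lung CD44lo CD62L+ Tregs.

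The proximal adaptors went in both directions. Grap2, which encodes the adaptor GADS that links LAT to SLP-76, was at 31.0 to 53.1 CPM in spleen (median 42.6) and at 89.2 to 223 CPM in skin (median 129), with no overlap, and was also called in lungs (44.0 to 116 CPM). Vav1, an exchange factor for Rac, was lower in skin, at 154 to 303 CPM (median 189) against 311 to 434 CPM in spleen (median 369), by a log2 fold change of -0.82 ± 0.14 (adjusted p = 1.24e-06). Themis, a thymocyte-expressed regulator of SHP-1, was higher in lungs and lower in skin, with log2 fold changes of 0.89 ± 0.27 and -0.95 ± 0.28. In skin the value was -1.74 in ST2+ libraries alone and -0.15 in ST2- libraries alone (adjusted p = 0.792), and in lungs, at 0.68 and 1.09, it was called in neither population alone. Its lung call was lost without mouse 4 or mouse 5 and its skin call without mouse 4. Trat1, a transmembrane adaptor, was higher in blood, at 89.5 to 246 CPM (median 158) against 58.6 to 108 CPM in spleen (median 77.4), and in lungs, at 120 to 219 CPM. The blood range overlapped that of spleen and the lung range did not. Zap70, Lat, Lcp2 and Plcg1 were called in 0 of the 5 comparisons.

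Among the negative regulators, Cblb moved most. This ubiquitin ligase, which sets the requirement for CD28, was at 131 to 194 CPM in spleen (median 168), 356 to 799 CPM in lungs (median 519) and 346 to 663 CPM in skin (median 531), with every lung and skin library above every spleen library. The log2 fold change over spleen was 1.63 ± 0.14 in lungs (adjusted p = 5.93e-14) and 1.62 ± 0.14 in skin (adjusted p = 1.22e-14). In blood and colon it was also called, at 0.65 ± 0.15 and 0.59 ± 0.15, where the 2 populations gave different values. In ST2- libraries alone the log2 fold change was 1.25 in blood and 1.18 in colon, and in ST2+ libraries alone it was 0.05 in blood and -0.0013 in colon. Leaving out mouse 2 or mouse 4 ended the colon call and leaving out mouse 4 the blood call. In VAT the same values were 1.22 in ST2- and -0.16 in ST2+ libraries, and their mean was called without mouse 2 or without mouse 5 but not with all 5 mice.

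Both diacylglycerol kinases, which remove the lipid that activates RasGRP1 and protein kinase C theta, were lower in colon and skin. Dgka was at 628 to 825 CPM in spleen (median 705), 355 to 627 CPM in colon (median 452) and 363 to 574 CPM in skin (median 434). Every skin and colon library lay below the lowest spleen library. The log2 fold changes of Dgka were -0.67 ± 0.09 in colon (adjusted p = 7.28e-09) and -0.76 ± 0.08 in skin (adjusted p = 2.05e-12). Those of Dgkz were -1.01 ± 0.23 and -0.98 ± 0.21, with wider and overlapping ranges. Ptpn22, a phosphatase acting on LCK and ZAP-70, was higher in skin, where it averaged 762 ± 119 CPM, than in spleen, at 469 ± 40.6 CPM (SD, n = 10 each). Ubash3b (STS-1) was higher in VAT, at 164 to 458 CPM against 86.5 to 188 CPM in spleen, and its paralog Ubash3a (STS-2) was lower in colon, at 136 to 304 CPM against 298 to 374 CPM, a call lost without mouse 2 or mouse 3. Cbl was called in 0 of the 5.

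In the distal branch towards NF-kB, Malt1, Bcl10 and Rasgrp1 were higher in skin and Prkcq was lower. Malt1, a paracaspase, was at 97.4 to 189 CPM in spleen (median 167), 232 to 521 CPM in lungs (median 367), 134 to 360 CPM in VAT (median 286), 367 to 587 CPM in colon (median 446) and 371 to 851 CPM in skin (median 694). Apart from VAT, each of these ranges lay wholly above the spleen range. Its log2 fold change was 2.02 ± 0.18 in skin (adjusted p = 3.85e-15), 1.5 ± 0.18 in colon, 1.18 ± 0.17 in lungs and 0.76 ± 0.17 in VAT. Bcl10, its partner, averaged 224 ± 31.2 CPM in skin and 136 ± 11.1 CPM in spleen (SD, n = 10 each), without overlap.

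Prkcq, which encodes protein kinase C theta upstream of that complex, went the other way. It was at 450 to 574 CPM in spleen (median 513), 207 to 361 CPM in colon (median 261) and 105 to 223 CPM in skin (median 157). The skin and colon ranges overlapped each other and both lay below the spleen range. The log2 fold change was -0.88 ± 0.12 in colon (adjusted p = 4.73e-08) and -1.74 ± 0.11 in skin (adjusted p = 2.04e-20). Rasgrp1, the diacylglycerol-dependent activator of Ras, averaged 485 ± 89.2 CPM in skin and 306 ± 38.0 CPM in spleen (SD, n = 10 each).

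The NFAT genes did not share a pattern. Nfatc1 was lower in blood, at 157 to 280 CPM (median 210) against 324 to 596 CPM in spleen (median 428), by a log2 fold change of -1.02 ± 0.13 (adjusted p = 4.54e-08), and the 2 ranges did not overlap. In ST2- libraries alone it was also called lower in lungs (-0.72) and skin (-0.67). In ST2+ libraries alone, at -0.25 and -0.30, it was not. Nfatc2 was higher in skin, at 103 to 295 CPM (median 190) against 42.3 to 116 CPM (median 92.4), with a small overlap. Nfatc3 and Rcan1 were called in 0 of the 5.

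Of the surface molecules, Cd69, an early activation antigen that retains T cells in tissue, was higher in lungs, VAT, colon and skin. It was at 212 to 686 CPM in spleen (median 414) and 1034 to 1484 CPM in colon (median 1301), its highest tissue. Cd44, the hyaluronan receptor, was at 127 to 266 CPM in spleen (median 201), 461 to 722 CPM in colon (median 647) and 874 to 1191 CPM in skin (median 1000), 3 ranges that did not overlap, with log2 fold changes of 1.71 ± 0.15 and 2.35 ± 0.14. CD44 protein was also a sorting criterion for these cells, within each tissue.

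The summed level of the 11 immediate early and heat shock genes also differed, from a median in spleen of 1864 CPM in ST2+ and 1525 CPM in ST2- libraries to 7414 and 7221 CPM in skin. What induced these genes was not tested. Blood and spleen were not digested, skin was digested longest, and tissue and digestion cannot be told apart in this design. The 11 epithelial and stromal marker genes summed to 203 to 334 CPM in spleen CD44hi libraries, 128 to 1629 CPM in colon and 159.5 to 1235 CPM in skin, and the 5 B cell marker genes had a median sum of 894 CPM in spleen and 248 CPM in skin. The part of these markers in the tissue differences was not tested. The comparisons with ST2+ libraries alone and with ST2- libraries alone, chosen after seeing the data, were contrasts of the main fit and not separate fits. In these, skin gave 16 and 17 called members, colon 9 and 9, lungs 6 and 9, VAT 6 and 5 and blood 4 and 5. Of the 45 calls over the 5 tissues, 32 were also made in both populations alone, 12 in 1 of them and 1 in neither. The share of all tested genes called in each population alone is not given here.

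Whether lungs and spleen also differed in cells without an effector phenotype was asked in the resting CD44lo CD62L+ Tregs. In these, 5 of 36 members were higher in lungs, where 2.12% of all genes were, and 0 lower, where 1.04% were. Cblb was at 657, 1196, 1049, 745 and 928 CPM in lungs of mice 1 to 5 and at 178, 173, 179, 182 and 218 CPM in spleen, without overlap, a log2 fold change of 2.30 ± 0.21 (adjusted p = 6.73e-13). The value of 1196 CPM was the highest for Cblb in any of the 67 libraries. Icos was at 299, 465, 379, 483 and 278 CPM in lungs and 121, 147, 118, 86.8 and 153 CPM in spleen, a log2 fold change of 1.6 ± 0.15 (adjusted p = 6.03e-12). Cd28 was at 775, 859, 801, 989 and 768 CPM in lungs and 438, 467, 425, 395 and 462 CPM in spleen, a log2 fold change of 0.94 ± 0.12, and neither gene's groups overlapped.

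Cd69 and Ptpn22 were the other 2 called in this comparison. Cd69 averaged 727 ± 122 CPM in lungs (SD, n = 5) and 432 ± 157 CPM in spleen (SD, n = 5), and its call was lost when any of mice 2 to 5 was left out; that of Ptpn22 was lost without mouse 5. With the mouse as a replicate block 8 members were called, the 5 above with Malt1 (adjusted p = 0.0367), Plcg1 (adjusted p = 0.0367) and Grap2 (adjusted p = 0.0495). The summed immediate early and heat shock genes were at 3692 to 4862 CPM in the lung libraries and 1208 to 2414 CPM in the spleen libraries, and their part in these differences was not tested.

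A stricter question was which members were called in the same direction in skin against each of the other 5 tissues in both populations. There were 4 higher, Icos, Grap2, Nfatc2 and Cd44, where 1.80% of all genes were, and 1 lower, Prkcq, where 2.33% were. Grap2 was 0.82 to 1.85 higher on the log2 scale over the 10 contrasts, the smallest being against ST2+ lung Tregs (adjusted p = 0.00155). For Icos the smallest was 0.60 ± 0.15 against ST2- colon Tregs and the largest 2.59 against ST2- blood Tregs. For Prkcq the 10 values ran from -0.71 against ST2- colon Tregs to -2.11 against ST2- blood Tregs. Nfatc2 was 0.88 to 1.28 higher and Cd44 0.61 to 2.75 higher.

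Malt1 and Cd28, also high in skin, did not meet this rule. Malt1 exceeded colon Tregs by 0.58 in ST2+ libraries and 0.46 in ST2- libraries, with adjusted p = 0.138 and 0.184, and Cd28 differed from colon by -0.15 and 0.06. Icos was lost with the mouse as a replicate block, where its difference from ST2- colon Tregs was 0.58 on the log2 scale, just under 1.5-fold. Leaving out 1 mouse at a time left 1 to 5 of the 5. Without mouse 4 Grap2 alone remained, without mouse 3 or mouse 5 Cd44 and Nfatc2 were lost, and without mouse 2 Prkcq was lost.

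**Figure D4:**
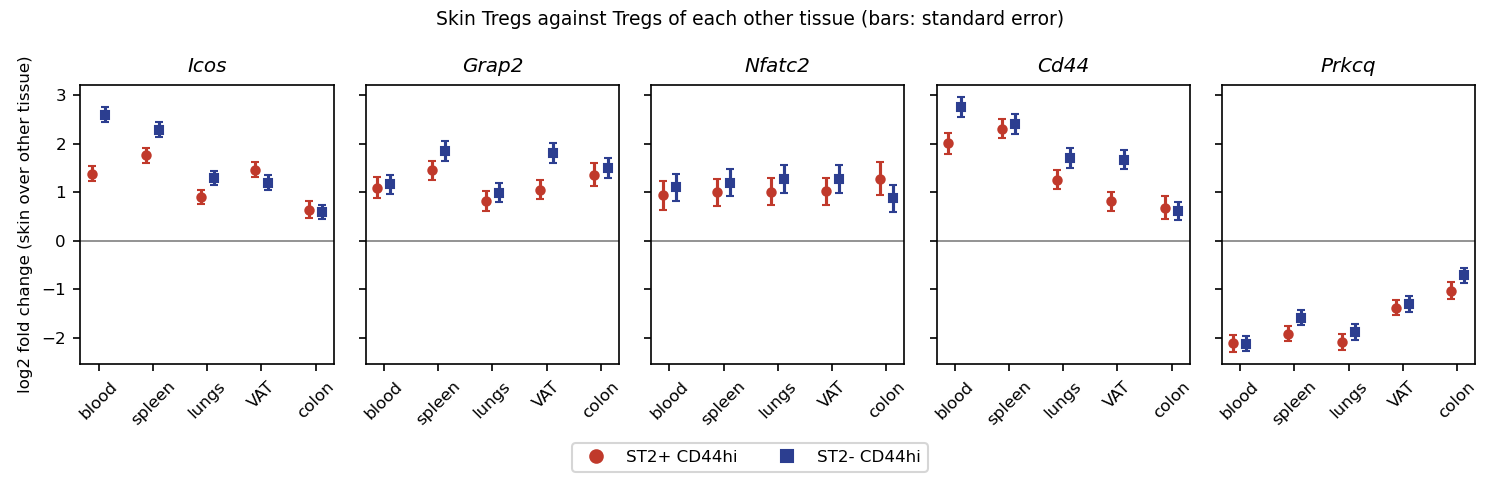
Log2 fold change of skin over each other tissue (horizontal axis) for the 5 members that set skin apart, in ST2+ CD44hi (circles) and ST2- CD44hi Tregs (squares), with standard errors. All points of Icos, Grap2, Nfatc2 and Cd44 are above 0 and all points of Prkcq below it, nearest to 0 against colon for Icos, Cd44 and Prkcq.

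Whether Tregs that carry ST2, the receptor of the alarmin IL-33, differ in this pathway from their ST2- CD44hi neighbours was asked within each tissue. In blood 2 members were higher in ST2+ Tregs, where 2.25% of all genes were, and 2 lower, where 1.79% were. In VAT 3 were higher (1.27% of all genes) and 4 lower (1.85%). In colon 0 were higher, where 0.0304% of all genes were, and 1 was lower (0.0380%). None passed in spleen, lungs or skin by edgeR, where 0.319%, 0.782% and 0.213% of all genes were called in either direction. At an unadjusted p under 0.05 by edgeR there were 4 of 36 members in spleen, 7 in lungs and 6 in skin. Of all 13173 tested genes, 680, 1321 and 1114 were under that limit in these tissues. Limma and DESeq2 called 0 members each in spleen, 2 each in lungs, and 1 and 2 in skin.

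Cblb was lower in ST2+ Tregs of VAT, blood and colon, the most tissues of any member. In VAT it was at 221, 63.1, 196, 188 and 86.3 CPM in ST2+ libraries of mice 1 to 5 and at 334, 345, 370, 462 and 409 CPM in ST2- libraries, a log2 fold change of -1.34 ± 0.20 (adjusted p = 8.29e-06). In blood it was at 174, 163, 221 and 145 CPM in ST2+ libraries of mice 2 to 5 and at 248, 428, 451, 476 and 351 CPM in ST2- libraries of mice 1 to 5 (adjusted p = 0.000382). In colon it was at 183, 156 and 169 CPM in ST2+ libraries of mice 1, 3 and 4 and at 327, 363, 301, 471 and 399 CPM in ST2- libraries (adjusted p = 0.0240).

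In each of those 3 tissues the ST2+ and ST2- values did not overlap. The colon call was lost without any of mice 1, 3, 4 or 5, and the 3 colon ST2+ libraries are the ones with high myeloid markers: 1263 to 1448 CPM summed against 34.1 to 285 CPM in colon ST2-, whose part in the difference was not tested. In lungs the values were also apart, 356 to 495 against 544 to 799 CPM, with a log2 fold change of -0.73 ± 0.20 and adjusted p = 0.0547, and with the mouse as a replicate block this passed (adjusted p = 0.0483), which made 1 called member there against 0. In spleen and skin the log2 fold changes were 0.05 ± 0.20 and -0.02 ± 0.20.

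**Figure D5:**
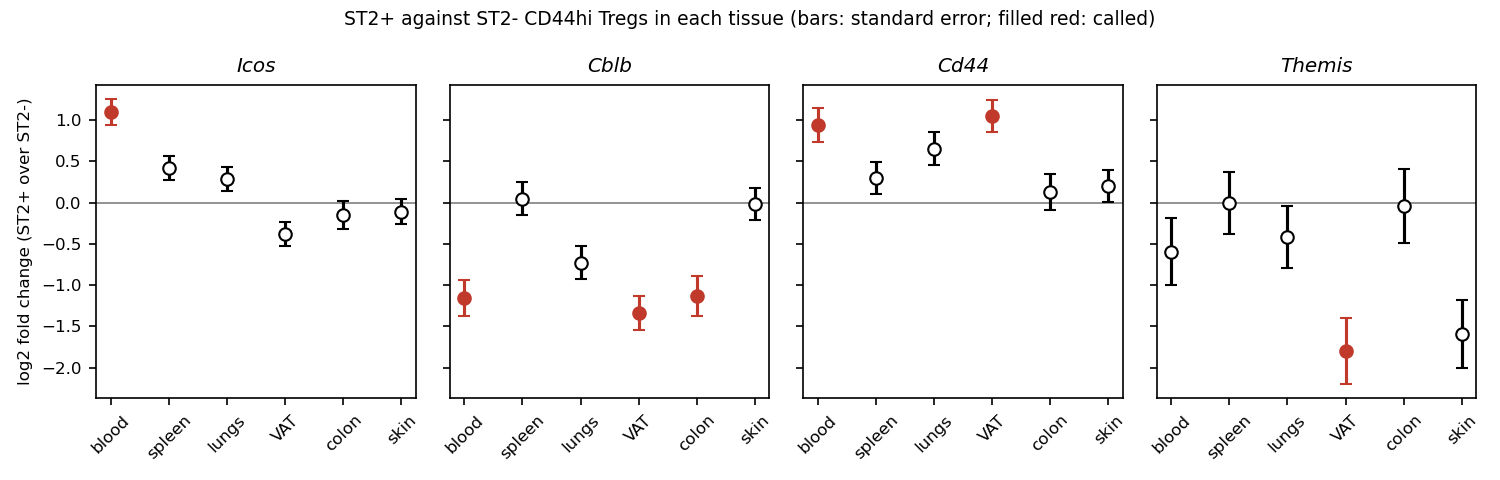
Log2 fold change of ST2+ over ST2- CD44hi Tregs within each tissue for Icos, Cblb, Cd44 and Themis, with standard errors, and filled red where called. Cblb is below 0 in blood, lungs, VAT and colon and near 0 in spleen and skin, and Icos is called in blood alone.

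Whether the ST2 difference itself varied between tissues was tested as an interaction over the 6 tissues. It passed for 2 of 36 members, Icos (adjusted p = 0.000113) and Cblb (adjusted p = 0.00165), where 1.43% of all genes passed. Icos was at 714, 753, 641 and 583 CPM in blood ST2+ libraries of mice 2 to 5 and at 293, 225, 266, 405 and 381 CPM in blood ST2- libraries of mice 1 to 5, without overlap and with a log2 fold change of 1.10 ± 0.16 (adjusted p = 2.36e-06). In VAT the sign was the opposite, at -0.38 ± 0.15, which was not called. Without mouse 5, Icos alone passed the interaction, and limma with quality weights passed 6 members.

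Cd44 was higher in ST2+ Tregs of blood and VAT. In VAT it was at 539, 525, 719, 529 and 755 CPM in ST2+ libraries and at 200, 356, 340, 309 and 276 CPM in ST2- libraries, and in blood at 273, 266, 293 and 245 CPM in ST2+ against 141, 41.9, 155, 159 and 202 CPM in ST2- libraries. The groups did not overlap in either tissue, with log2 fold changes of 1.05 ± 0.20 and 0.94 ± 0.21. Rasgrp1 was lower in blood ST2+ libraries, at 324, 416, 306 and 206 CPM against 491, 445, 497, 472 and 442 CPM, at the edge of 1.5-fold without overlap. Its call was lost without mouse 1, 4 or 5, with DESeq2 and with median-of-ratios factors. The blood ST2+ library of mouse 3 came from 55 cells and was among the 4 least correlated with their groups, at a mean rank correlation of 0.887. So was blood ST2- mouse 1, at 166 cells and 0.890.

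The remaining differences were in VAT. Themis was at 64.4, 65.3, 11, 46.4 and 33.2 CPM in ST2+ libraries and at 171, 157, 112, 170 and 159 CPM in ST2- libraries, a log2 fold change of -1.80 ± 0.40 (adjusted p = 0.00269). Ubash3b was at 345, 285, 415, 270 and 458 CPM against 249, 164, 164, 222 and 214 CPM, also without overlap. Cd69 was at 795, 972, 1138, 1068 and 1339 CPM against 305, 613, 685, 804 and 785 CPM, with the lowest ST2+ library inside the ST2- range. Ptpn22, at 463, 263, 388, 626 and 337 CPM against 547, 724, 537, 745 and 635 CPM, and Trat1, which averaged 46.7 ± 29.3 CPM in ST2+ and 91.9 ± 38.5 CPM in ST2- libraries (SD, n = 5 each), were lower with overlap.

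The VAT counts leaned on single mice. Without mouse 2 or without mouse 5 there were 3 called members, namely Cblb, Themis and Cd44, which were called whichever mouse was left out. Cd69, Ubash3b and Trat1 lost their calls without mouse 2, 3 or 5, Ubash3b also without mouse 4, and Ptpn22 without mouse 2 or 5. Cd69 and Trat1 also lost their calls once the cell number of each sort entered the fit, which was 93 to 220 in VAT ST2- libraries and 220 in every VAT ST2+ library. The 2 VAT libraries of mouse 2 were the least correlated with their own groups, at mean rank correlations of 0.879 and 0.885. The summed immediate early and heat shock genes were also higher in VAT ST2+ libraries, at 6272 to 8892 CPM against 2811 to 5628 CPM, and their part was not tested.

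The CD44hi and CD44lo CD62L+ ST2- populations of spleen and lungs compare effector with resting Tregs. In spleen 7 of 36 members were higher in CD44hi Tregs, where 4.44% of all genes were, and 1 lower, where 0.592% were. In lungs 4 were higher (4.84%) and 0 lower (0.691%). Cd44 is the sort gate: it was 3.01 times higher in spleen and 4.67 times higher in lungs, which checks the sort and is no finding.

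Icos rose in both. In spleen it was at 337, 383, 457, 366 and 397 CPM in CD44hi libraries of mice 1 to 5 and at 121, 147, 118, 86.8 and 153 CPM in CD44lo CD62L+ libraries, a log2 fold change of 1.63 ± 0.15 (adjusted p = 4.75e-12). In lungs it was at 716, 887, 681, 895 and 688 CPM against 299, 465, 379, 483 and 278 CPM, a log2 fold change of 1.02 ± 0.15 (adjusted p = 7.34e-07). The lung resting cells therefore spanned 278 to 483 CPM, a range that overlaps the 337 to 457 CPM of splenic effector cells.

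Nfatc1 was at 490, 557, 596, 424 and 448 CPM in splenic CD44hi libraries and at 258, 181, 205, 153 and 205 CPM in CD44lo CD62L+ libraries, a log2 fold change of 1.33 ± 0.18 (adjusted p = 1.52e-07). It was also called in lungs, at 305 ± 66.3 against 195 ± 41.5 CPM (SD, n = 5 each), a call lost without mouse 2. Malt1 in lungs was at 232, 360, 314, 367 and 352 CPM against 45.6, 204, 199, 185 and 219 CPM, and lost its call without mouse 4. Grap2 was the member that fell in spleen, at 40.8, 49.0, 35.2, 51.0 and 53.1 CPM against 89.4, 81.4, 72.4, 89.9 and 74.9 CPM, with no overlap.

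Zap70, Ptpn22, Ubash3b and Malt1 were the other members higher in splenic CD44hi Tregs. Zap70 averaged 193 ± 49.1 against 108 ± 25.4 CPM, Ptpn22 490 ± 41.2 against 295 ± 12.3 CPM, Ubash3b 132 ± 34.9 against 68.5 ± 11.2 CPM and Malt1 171 ± 12 against 99.6 ± 19.3 CPM (SD, n = 5 each). Without mouse 3 the spleen count dropped from 8 to 5, with Zap70, Ubash3b and Malt1 lost. Zap70 was also lost without mouse 2 or 5 and Malt1 without mouse 2, 4 or 5. Prkcq and Dgka had log2 fold changes of -0.53 ± 0.15 and -0.39 ± 0.11, short of 1.5-fold.

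The other 85 genes of a wider list of receptor signalling genes, all tested, are given by their counts. In skin against spleen 22 were higher (25.9% of the list, against 21.0% of all tested genes) and 17 lower (20% against 20.2%), shares near those of all genes, led by Itpkb, an inositol trisphosphate kinase, at 544 against 148 CPM, and Orai1, the calcium channel, at 419 against 155 CPM, and by lower Sh2d1a (SAP), at 35.2 against 192 CPM, and Ptpn6 (SHP-1), at 101 against 358 CPM. In colon 10 were higher (11.8% against 14.7%) and 4 lower (4.71% against 4.73%), led by Dusp4, a MAP kinase phosphatase, at 283 against 23.4 CPM, and by Dusp2, at 197 against 361 CPM. In VAT 13 rose and 4 fell (15.3% and 4.71%, against 8.80% and 7.09%), in lungs 8 rose and 3 fell (9.41% and 3.53%, against 6.16% and 4.02%), and in blood 5 rose and 4 fell (5.88% and 4.71%, against 2.98% and 4.81%). Itpkb was higher than in spleen in all 5 tissues.

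For the ST2 comparison the wider list gave 3 higher and 5 lower in blood (3.53% and 5.88%, against 2.25% and 1.79% of all genes) and 2 higher and 5 lower in VAT (2.35% and 5.88%, against 1.27% and 1.85%). It gave 1 in spleen (1.18% against 0.319%), the higher Nck2, an adaptor to the cytoskeleton, at 80.3 against 38.0 CPM. In lungs, colon and skin the list gave 0 by edgeR. There 20, 9 and 5 of the 85 had an unadjusted p under 0.05, as had 1321, 664 and 1114 of all 13173 tested genes. Sh2d1a and Lax1, an inhibitory adaptor, led the decrease in VAT ST2+ Tregs, at 44.2 against 162 CPM and 43.9 against 128 CPM. For CD44hi over CD44lo CD62L+ Tregs it gave 6 higher and 4 lower in spleen (7.06% and 4.71%, against 4.44% and 0.592%) and 4 higher and 0 lower in lungs (4.71% higher, against 4.84%), with Sla, a receptor-dampening adaptor, first among those higher in both. In CD44lo CD62L+ Tregs of lungs over spleen it gave 5 higher and 2 lower (5.88% and 2.35%, against 2.12% and 1.04%). Against every other tissue, 1 of the 85, Orai1, was higher in skin (1.18% against 1.80%) and 2, Ptpn6 and Tespa1, were lower (2.35% against 2.33%).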

How the data were processed

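Tregs were sorted in lots of up to 220 cells and amplified with a full-length cDNA kit that does not mark strand, followed by single reads of 58 bases. The authors aligned reads to GRCm38 with STAR and Ensembl release 91 (their methods also name GRCh38), and the deposited values are raw counts per gene from HTSeq-count 0.4.1; the strand setting is not given in the sources used here. Symbols and exon lengths came from GENCODE M21. Libraries with 1000000 counts or fewer were left out, a limit the methods also use. Counts were TMM-normalised (edgeR 4.0.16, R 4.3.3), and protein-coding genes at 1 CPM or more in 10% of libraries were fitted with edgeR's quasi-likelihood model with 1 term per group; p-values were Benjamini-Hochberg adjusted over all tested genes, within each comparison. The members and lists were chosen with earlier results of these data known. Any member could be named. Values in every library are given for at most 3 called members in each direction of a comparison, by adjusted p, and at most 2 genes per direction are named from the wider list.

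Populations of 1 mouse share that animal: same-mouse pairs of ST2+ and ST2- libraries deviated from their group means with a mean correlation of 0.117 (27 pairs, 6441 genes) against -0.0278 for 108 pairs of different mice, so the mouse numbers pair the samples. Where n = 10 is given for a tissue, it counts libraries, 2 from each of 5 mice, and the main fit had no term for the mouse. No 2 libraries of 1 group had identical counts. Alternatives were DESeq2 1.42.0, limma 3.58.1 voom with quality weights, the mouse as a replicate block and a covariate for how many cells were sorted. Other scaling and filters, all 70 libraries and each mouse left out were also run. Leaving out the 4 least correlated libraries was chosen after seeing the data. So was each population alone, which was a contrast of the main fit and not a refit. The fit was also run on simulated counts, drawn independently for each library, with changes in skin alone. The simulation held no mouse effect, so it cannot show how the unpaired fit handles libraries of the same mouse. Promoter windows are RefSeq's.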

Additional observations from a re-analysis of the deposited data

Results flagged for a closer look

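Among 116 sets of a member in 1 group of 4 or 5 libraries, 10 held a library far from the others, where chance flags about 1 in 20. Low libraries were Cd44 in blood ST2- mouse 2, at 41.9 CPM where the others were at 141 to 202 CPM, Malt1 in lung CD44lo CD62L+ mouse 1, at 45.6 CPM (others 185 to 219 CPM), Cd69 in VAT ST2- mouse 1, at 305 CPM (others 613 to 804 CPM), and Themis in VAT ST2- mouse 3, at 112 CPM (others 157 to 171 CPM). Prkcq was low in VAT ST2- mouse 5, at 313 CPM (others 410 to 457 CPM), and in lung ST2+ mouse 3, at 518 CPM (others 609 to 647 CPM). High libraries were Grap2 in skin ST2- mouse 1, at 223 CPM (others 144 to 159 CPM), Trat1 in blood ST2+ mouse 2, at 246 CPM (others 148 to 158 CPM), Cd28 in lung ST2+ mouse 4, at 1077 CPM (others 852 to 908 CPM), and Cblb in spleen CD44lo CD62L+ mouse 5, at 218 CPM (others 173 to 182 CPM).

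The ST2 difference varied between tissues, by the interaction test, for Icos (adjusted p = 0.000113) and Cblb (adjusted p = 0.00165).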

How the results depend on the processing

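Cblb in colon against spleen, called at 0.59 on the log2 scale, was -0.0013 in ST2+ libraries alone, a contrast of the main fit. No other called member changed sign under any alternative. The mouse as a replicate block changed the counts of called members by over 1.5 times for ST2+ against ST2- Tregs in lungs, 1 against 0, and for CD44lo CD62L+ Tregs of lungs against spleen, 8 against 5. It also ended the skin call of Icos and added Grap2 in blood, Plcg1 in VAT, Trat1 and Grap2 in the CD44hi against CD44lo CD62L+ comparisons of spleen and lungs, Ptprc among tissues and Cd69 in the interaction. For ST2+ against ST2- in lungs, DESeq2 and limma gave 2, the filter of 1 CPM in 50% of libraries 1 and leaving out the 4 least correlated libraries 1, against 0. In VAT (7) limma gave 4, all 70 libraries 2 and the 4 libraries left out 3. In colon (1) DESeq2 and limma gave 2, and in skin (0) 2 and 1. DESeq2 gave 8 for CD44lo CD62L+ lungs against spleen, and limma 6 for the interaction (2). Blood against spleen (3) gave 6 without the 4 libraries and 5 with ST2- libraries alone. All 70 libraries gave 2 for the skin rule (5). The cause of these shifts was not tested. The counts of the alternative runs are not set beside the share of all tested genes called in the same run. A shift in the members therefore cannot be told from a shift over all genes.

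Leaving out 1 mouse at a time gave 3 to 7 members for ST2 in VAT, 0 to 1 in colon and 0 to 2 in skin, 5 to 9 for CD44hi against CD44lo CD62L+ in spleen, 3 to 5 for blood against spleen, 3 to 6 for CD44lo CD62L+ lungs against spleen, 1 to 2 for the interaction and 1 to 5 for the skin rule. Skin, colon, lungs and VAT against spleen gave 16 to 17, 8 to 10, 8 to 9 and 6 to 7 members, some of them gained (in VAT Vav1 without mouse 1 and Cblb without mouse 2 or 5, in colon Trat1 without mouse 4). The library totals of 1304560 to 2759926 counts limit most the least expressed members, such as Rcan1, Grap2 and Nfatc2.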
